A study of Mus musculus with 16 samples.

Results

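Adenoma cells from the small intestine of mice with a mutant copy of Apc were set against wild-type intestinal epithelium grown together with myofibroblasts, on microarrays that measured 22180 genes. The comparison takes 6 of the 14 biological samples of the study, on 8 of its 16 arrays, and asks how tumour epithelium differs from normal epithelium that has received fibroblast signals. The adenoma group was Apc+/1638N, 4 animals named P21, P23, P34 and P36, with repeat arrays of P21 and of P34 that were averaged first. The labels of this group give n as 3 although they name 4 animals, and the repeat arrays of P34 are cross-referenced by codes that differ from their titles, so the names of the animals were followed here. The co-cultured group was wild-type crypt epithelium of animals P28 and P30, grown as organoids in Matrigel for 24 h below an insert with 0.4 µm pores that carried intestinal myofibroblasts, the contractile matrix-making cells of the gut wall. All of these mice were C57Bl/6, 8 to 10 weeks old and labelled male. The labels do not give the medium or the culture time of the adenoma cells, so genotype, tumour state and culture cannot be told apart in any difference given here. The same epithelium of P28 and P30 grown without fibroblasts (monoculture) is quoted only as a level. Members were all genes with a probe set of 1 symbol, and 18095 of the 22180 were bright enough in at least 1 of the 5 groups of the study to be tested.

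Apc scaffolds the complex that marks beta-catenin for destruction, and cells that lose it keep Wnt target genes on. In the normal small intestine Wnt signals hold stem cells in the crypt, and cells that leave the crypt become absorptive enterocytes or secretory goblet, Paneth, enteroendocrine and tuft cells. Fibroblast factors act on this balance, and injured or co-cultured epithelium can take on genes of the fetal gut and of the co-activator YAP.

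Values are log2 levels, given in the order P21, P23, P34, P36 for adenoma and P28, P30 for co-culture, and a difference of 1 is a 2-fold change. A gene is said to have risen or fallen where limma, fitted over all 14 samples, gave an adjusted p under 0.05, with Benjamini-Hochberg adjustment over 18095 genes. A level under 2.67, the 30th percentile of probe set means, is called dim, and a difference against a dim group is a lower bound in size. The median over all probe sets was 3.48 to 3.58 in each array, and precision is set by how few arrays each group has. Repeat arrays of 1 animal differed by an SD of 0.28 over genes, P21 and P23 by 0.31 to 0.34, P34 and P36 by 0.34, and animals of different pairs by 0.68 to 0.71. Co-cultures P28 and P30 differed by 0.38. Over the 8013 genes with an adenoma mean above 6, repeat arrays differed by 0.16 and 0.17. There P21 and P23 differed by 0.23 to 0.25, and P34 and P36 by 0.27 to 0.29. Animals of different pairs differed by 0.69 to 0.72 there, and the co-cultures by 0.30. The co-culture labelled male from P28 went against its label, with the inactive-X transcript Xist at 7.57 and the Y-linked Eif2s3y at 2.89. The P28 monoculture was alike, with Xist at 8.04 and Eif2s3y at 3.05. Xist was 2.37, 2.30, 2.44 and 2.17 in adenoma and 2.30 in co-culture P30, and Eif2s3y was 7.59, 7.37, 8.31 and 8.46 in adenoma and 8.03 in co-culture P30. By these genes both cultures of P28 read as female, and co-culture P30 and all adenomas as male. Counts without P28 are therefore given beside those they move most. Apc itself was 8.13, 8.29, 8.82 and 9.25 in adenoma and 8.39 and 8.51 in co-culture, a difference of 0.17 ± 0.27 (SE, adjusted p = 0.702). The sources used here do not say where its probes lie relative to the mutation, so the genotype cannot be read from this level.

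Adenoma differed from co-cultured epithelium in 6022 genes, 33.3% of those tested. In adenoma 3439 genes rose, 19.0% of those tested, and 2583 fell, 14.3%. The 4 adenoma values and the 2 co-culture values did not overlap for 51.2% of the genes. With at least a 2-fold difference and groups that did not overlap, 1636 rose, 9.04%, and 1330 fell, 7.35%. The falls reached further than the rises: among called genes 120 were lower by at least 32-fold and 8 were higher by as much, while the median difference was 0.97 among those that rose, -1.03 among those that fell and 0.01 over all genes. Without co-culture P28 the counts were 2222 rises and 1642 falls, and without co-culture P30 2511 and 1919. The split into more rises than falls turned round after cyclic loess normalization of all arrays, with 2684 rises (45.8% of the called genes, against 57.1% as deposited) and 3170 falls (54.2%, against 42.9%). The median difference over all genes was at most 0.0519 in size in each setting tried.

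**Figure D1:**
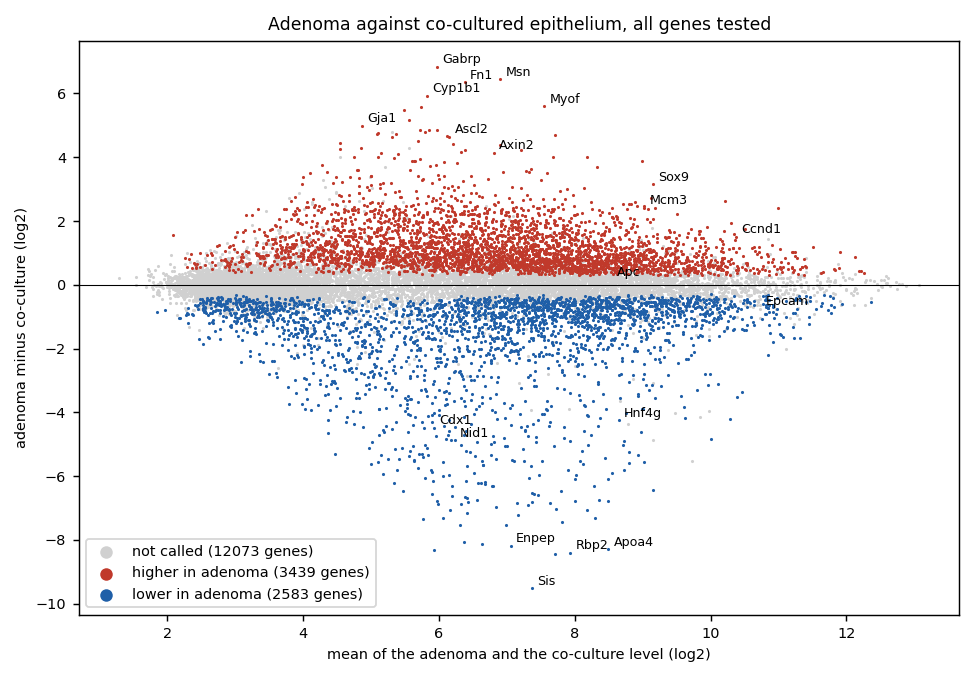
Difference between adenoma and co-cultured epithelium (vertical axis, log2) against the mean of both levels (horizontal axis, log2), 1 point per gene tested, red where higher in adenoma, blue where lower and grey where not called. The blue cloud reaches past -8, to Sis, while the red cloud ends below 7, at Gabrp.

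Most of the 15 largest falls were genes of digestion, fat handling or drug metabolism in the absorptive villus cell. Sucrase-isomaltase, Sis, which splits sucrose at the brush border, had levels of 2.95, 2.91, 2.46 and 2.10 in adenoma, against 12.11 and 12.15 in co-culture. It fell by 9.52 ± 0.21 (SE, limma, adjusted p = 4.42e-11), and its adenoma mean was dim. No adenoma value came near a co-culture value. The retinol carrier Rbp2 had 3.73, 4.15, 3.40 and 3.67 in adenoma and 12.11 and 12.15 in co-culture, and the apolipoprotein Apoa4, carried on chylomicrons, 4.25, 4.64, 4.15 and 4.35 in adenoma and 12.55 and 12.74 in co-culture. The fatty acid carrier Fabp1 had 2.47, 2.15, 2.49 and 2.24 in adenoma and 10.19 and 10.63 in co-culture. All adenomas were below 5 for these genes and both co-cultures above 10. Another probe set of Rbp2 differed by -6.66, against -8.39 for the one given. Aminopeptidase A (Enpep), Clca4b, 2010106E10Rik, the cytochromes P450 Cyp2c29 and Cyp2c66, the lectin-like Clec2h, the calcium-binding Chp2, the fatty acid carrier Fabp2, the butyrophilin-like Btnl1, the lipid loading protein Mttp and the apolipoprotein Apoa1 made up the 15, with differences between -8.43 and -7.21.

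Among the 15 largest rises Gabrp, a subunit of GABA type A receptors, had 9.50, 10.28, 9.35 and 8.39 in adenoma, against 2.20 and 2.89 in co-culture, where its mean was dim. It rose by 6.83 ± 0.38 (SE, limma, adjusted p = 1.31e-07). Moesin (Msn), which ties membrane proteins to actin, had 10.26, 10.63, 10.14 and 9.49 in adenoma and 3.77 and 3.59 in co-culture. Fibronectin (Fn1), a matrix protein, had 9.91, 10.61, 8.76 and 8.92 in adenoma and 3.15 and 3.26 in co-culture. For these genes every adenoma was above 8 and both co-cultures were below 4. Cyp1b1, which oxidises steroids and aromatic compounds, rose by 5.93 ± 0.41, the membrane repair protein Myof by 5.60 ± 0.32, the actin regulator Enah by 5.58 ± 0.29 and the adhesion receptor Adgrg6 by 5.49 ± 0.41. Plekhs1, the gap junction protein Gja1, the coactivator Eya2, the ferric reductase Cybrd1, Cibar1, the phosphatase Ptpn13, the cornified envelope protein Scel and the prostaglandin synthase Ptgs2 followed, with differences between 4.74 and 5.17. Msn had another probe set, which was dim in both groups and differed by -0.07.

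**Figure D2:**
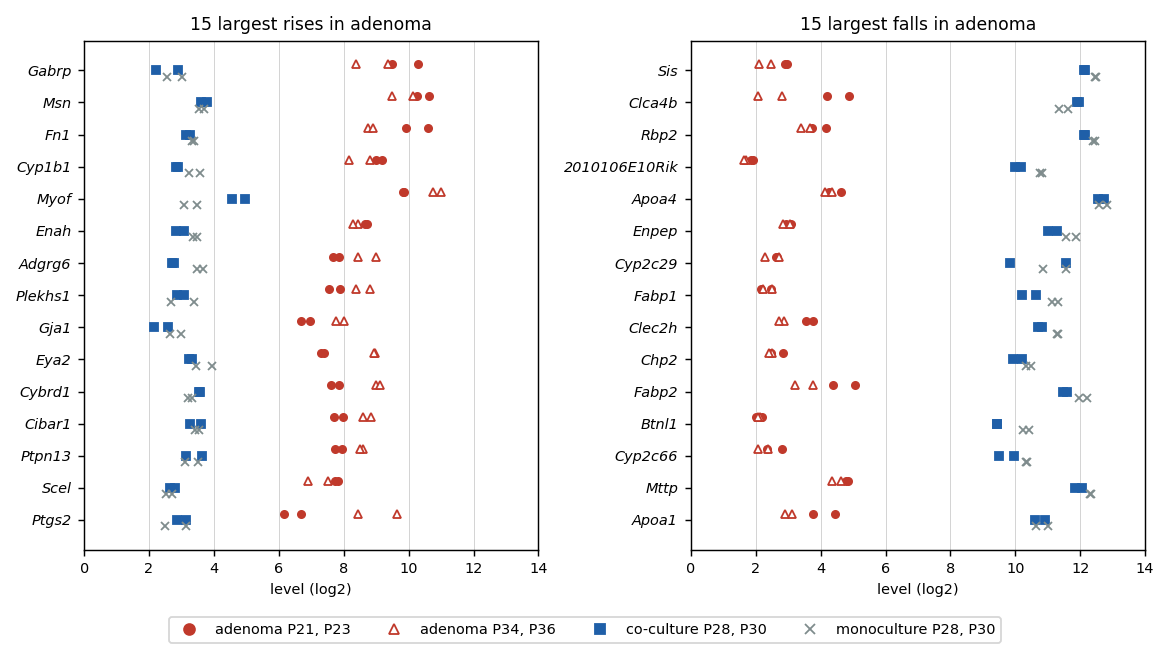
Levels (horizontal axis, log2) of the 15 genes that rose most (left) and the 15 that fell most (right) in adenoma, with adenoma P21 and P23 as red dots, adenoma P34 and P36 as open red triangles, co-cultures as blue squares and monocultures as grey crosses. Adenoma and co-culture values are apart for every gene, and co-culture and monoculture means are less than 1 apart for all but Myof.

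Enzymes and structural proteins of the brush border fell as a group: 0 rose and 19 of 20 fell, against 14.3% of all genes, with a median difference of -4.30. Fewer absorptive cells and less RNA of these genes per cell cannot be told apart in such bulk samples. Besides Sis and Enpep, alkaline phosphatase (Alpi) fell by 6.44 ± 0.24, the metalloprotease subunit Mep1b fell by 6.96 ± 0.27, trehalase (Treh) fell by 5.31 ± 0.25 and the peptidase Dpp4 fell by 6.62 ± 0.36. Villin (Vil1), which bundles the actin of microvilli, kept more of its level. It had 10.55, 10.66, 9.93 and 9.85 in adenoma and 11.84 and 11.76 in co-culture, and fell by 1.56 ± 0.28 (limma, adjusted p = 9.93e-04). Maltase-glucoamylase (Mgam) fell unevenly, with 8.45, 8.44, 2.71 and 2.81 in adenoma and 11.63 and 11.35 in co-culture, so that P34 and P36 were close to the dim level while P21 and P23 were not. Only the actin capping protein Eps8 did not pass (-0.50 ± 0.42, adjusted p = 0.435).

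Transport genes had the largest median fall of any list, -5.37. They had 0 rises and 22 falls among 25 (88.0%, against 14.3% of all genes). The chloride exchanger Slc26a3 had 2.90, 3.18, 2.77 and 2.74 in adenoma and 9.70 and 9.83 in co-culture, and the neutral amino acid transporter Slc6a19 2.84, 2.48, 2.56 and 2.40 in adenoma and 9.19 and 9.53 in co-culture. Both were flat and low in all adenomas. The peptide transporter Slc15a1 fell by 6.22 ± 0.20, the fructose transporter Slc2a5 fell by 6.64 ± 0.25 and the anion exchanger Slc26a6 fell by 5.14 ± 0.20. Of the 3 members that did not pass, the iron exporter Slc40a1 had 8.68, 8.23, 7.84 and 7.48 in adenoma and 5.15 and 6.84 in co-culture (adjusted p = 0.164), above in all adenomas. The iron importer Slc11a2 (-0.40 ± 0.24) and the nucleoside transporter Slc28a2 (-0.66 ± 0.35) did not pass either.

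Fat absorption and lipoprotein genes had 0 rises and 18 falls among 21 (85.7%, against 14.3% of all genes), with a median of -3.49. The transcription factor Creb3l3 fell by 6.23 ± 0.16 and the cholesterol importer Npc1l1 fell by 6.60 ± 0.18. Members that did not pass were the acyl-CoA synthetase Acsl5 (-0.42 ± 0.20), the lipoprotein receptor Scarb1 (-0.41 ± 0.32) and a further member that was near the dim level in both groups. Genes of fatty acid oxidation and of PPAR had 15 falls (88.2%) and 0 rises among 17, with a median of -1.48. The receptor Ppara had 3.47, 3.78, 3.20 and 3.69 in adenoma and 8.04 and 8.02 in co-culture, and the peroxisomal enzyme Ehhadh 4.97, 5.16, 3.22 and 3.03 in adenoma and 8.55 and 8.83 in co-culture. Ppara was low in all adenomas, whereas Ehhadh was lower in P34 and P36 than in P21 and P23. The acyl-CoA dehydrogenase Acadl fell by 1.17 ± 0.13 and the carnitine transferase Cpt2 fell by 1.52 ± 0.18.

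Drug metabolism genes had 0 rises and 23 falls among 26 (88.5%, against 14.3% of all genes), with a median of -3.89. The cytochrome P450 Cyp3a13 had 7.45, 7.19, 7.69 and 7.34 in adenoma and 10.77 and 11.15 in co-culture, Cyp3a11 fell by 5.51 ± 0.30, the glutathione transferase Gstm3 fell by 3.50 ± 0.21, the alcohol dehydrogenase Adh1 fell by 6.83 ± 0.43 and the glucuronosyltransferase Ugt2b5 fell by 5.30 ± 0.34. Cyp1a1, a target of the aryl hydrocarbon receptor, had 2.90, 3.24, 2.85 and 2.77 in adenoma and 3.82 and 4.76 in co-culture, and fell by 1.35 ± 0.28 (adjusted p = 0.00249). Its monoculture mean was 6.94, above every adenoma and co-culture value. The aldehyde dehydrogenase Aldh1a1 (-1.04 ± 0.69), the glutathione transferase Gsta4 (-0.63 ± 0.28) and the carboxylesterase Ces1d (-0.92 ± 0.35) did not pass.

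The start regions of Sis and Fabp1 are printed because their genes were among the largest falls and because both hold letters read by intestinal transcription factors. The windows are RefSeq sequence of the GRCm38.p6 build, 300 bases on the gene's own strand and mostly upstream of its start. Capitals mark TTTATG, a core bound by CDX factors, or its reverse complement CATAAA, and the HNF1 half-site GTTAAT or its reverse complement ATTAAC, none of which overlap there. Sis lies on the minus strand at chr3:72967814-72968113 and Fabp1 on the plus strand at chr6:71199629-71199928.
Sis: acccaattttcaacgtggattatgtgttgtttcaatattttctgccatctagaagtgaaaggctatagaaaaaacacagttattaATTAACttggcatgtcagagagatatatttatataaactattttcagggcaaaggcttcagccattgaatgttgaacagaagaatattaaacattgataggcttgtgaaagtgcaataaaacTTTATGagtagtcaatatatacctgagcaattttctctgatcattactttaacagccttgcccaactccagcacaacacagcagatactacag
Fabp1: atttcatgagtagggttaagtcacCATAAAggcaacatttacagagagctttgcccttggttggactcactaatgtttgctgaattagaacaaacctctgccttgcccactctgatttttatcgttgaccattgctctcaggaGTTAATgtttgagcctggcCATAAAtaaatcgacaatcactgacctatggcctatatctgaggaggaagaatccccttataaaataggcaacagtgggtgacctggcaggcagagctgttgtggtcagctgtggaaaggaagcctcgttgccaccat
Both motifs were searched on both strands. TTTATG was found in 6 of 18 brush border genes with a sequence (33.3%), 3 of 16 fat absorption genes (18.8%) and 2 of 21 transport genes (9.52%), against 13.6% of 27025 genes. GTTAAT was found in 6 of 21 transport genes (28.6%), 3 of 16 fat absorption genes (18.8%) and 2 of 18 brush border genes (11.1%), against 8.24% of all genes. These are matches of letters and show no binding.

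Factors that set intestinal identity fell in 12 of 21 cases (57.1%) and rose in 2 (9.52%), against 14.3% and 19.0% of all genes. Their median was -1.43. Cdx1, a homeobox factor of the gut, had 3.79, 3.73, 3.67 and 3.57 in adenoma and 8.51 and 7.82 in co-culture, and fell by 4.48 ± 0.24 (limma, adjusted p = 8.70e-08). Its relative Cdx2 had 8.52, 8.46, 7.04 and 6.67 in adenoma and 9.55 and 9.25 in co-culture, and fell by 1.73 ± 0.44 (adjusted p = 0.00905). Cdx1 was low in all adenomas, while Cdx2 was lowest in P34 and P36. The nuclear receptor Hnf4g, which drives enterocyte genes, had 6.34, 6.50, 6.42 and 6.82 in adenoma and 10.73 and 10.80 in co-culture. The nuclear receptor of xenobiotics Nr1i3, the bile acid receptor Nr1h4, the oxysterol receptor Nr1h3 and the factor Maf fell, with differences of -4.05, -3.81, -2.38 and -3.68. Another probe set of Maf differed by -2.19. The vitamin D receptor (Vdr) had 7.63, 7.31, 4.48 and 3.98 in adenoma and 10.43 and 10.42 in co-culture, and fell by 4.57 ± 0.88. The 2 that rose were forkhead factors of gut endoderm, Foxa2 by 1.53 ± 0.22 and Foxa1 by 1.28 ± 0.23. Gata4, which marks the upper small intestine, had 8.04, 7.87, 9.51 and 9.80 in adenoma and 9.46 and 9.82 in co-culture and did not pass (adjusted p = 0.218).

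Genes normally of the stomach had 6 rises (31.6%) and 1 fall (5.26%) among 19, against 19.0% and 14.3% of all genes. Their median difference was 2.40, and ran from 0.17 to 3.65 over the settings tried. They differed between adenomas, with mean levels of 5.48, 5.65, 8.45 and 8.90 in adenoma and 4.95 and 5.34 in co-culture. The gastric aspartic protease Ctse had 10.51, 10.80, 12.33 and 12.47 in adenoma and 8.66 and 9.15 in co-culture, the gastrokine Gkn3 5.75, 5.74, 6.33 and 6.88 in adenoma and 2.97 and 2.63 in co-culture, and the forkhead factor Foxq1 9.89, 10.09, 10.88 and 10.70 in adenoma and 7.59 and 8.38 in co-culture. These 3 were higher in every adenoma. Another probe set of Foxq1 differed by 0.96, against 2.40 for the one given. Pepsinogen C (Pgc) had 4.35, 4.78, 6.88 and 10.42 in adenoma and 2.59 and 3.43 in co-culture, and rose by 3.60 ± 1.24 (adjusted p = 0.0418). Another set of members was high in P34 and P36 only and did not pass. The mucin Muc1 had 3.10, 3.91, 11.86 and 11.97 in adenoma and 3.17 and 2.65 in co-culture, the gastric claudin Cldn18 3.18, 3.70, 10.60 and 10.69 in adenoma and 3.27 and 3.44 in co-culture, and the foregut factor Sox2 2.14, 2.77, 8.32 and 8.28 in adenoma and 2.49 and 2.52 in co-culture. The surface mucin Muc5ac had 3.03, 3.07, 8.51 and 9.14 in adenoma and 3.19 and 2.86 in co-culture, and the trefoil peptide Tff1 5.19, 4.98, 11.16 and 11.34 in adenoma and 5.87 and 6.14 in co-culture. P21 and P23 were close to the co-cultures in Muc1, Cldn18, Sox2 and Muc5ac, and below them in Tff1. The genes of this set other than Tff1 were picked for this pattern after their values were seen. Counts of this list moved with the adenomas included: 16 rose and 2 fell with P34 and P36 alone, 5 rose and 3 fell with P21 and P23 alone, 13 rose without P21, 10 rose without P23, and 3 rose without animals P28 and Pl_III. Vsig1, a junction protein of the gastric epithelium, also rose, but its co-cultures lay far apart (9.25, 8.98, 11.05 and 11.47 in adenoma, 3.78 and 8.58 in co-culture).

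Some genes of the secretory lineages fell, and goblet and Paneth genes differed between the adenomas. Enteroendocrine genes had 0 rises and 8 falls among 19 (42.1%, against 14.3% of all genes), with a median of -0.93. Without P28 10 fell, with a median of -1.48, and without P30 6 fell, with a median of -0.30. Chromogranin B (Chgb), a protein of hormone granules, had 2.66, 3.17, 2.92 and 2.58 in adenoma and 8.70 and 9.29 in co-culture, and chromogranin A (Chga) 3.96, 3.59, 3.37 and 3.82 in adenoma and 8.18 and 8.85 in co-culture. Both were low in every adenoma. The serotonin enzyme Tph1 fell by 4.92 ± 0.38, secretin (Sct) fell by 3.26 ± 0.26 and ghrelin (Ghrl) fell by 3.98 ± 0.37. The other 11 members, among them the gut hormone Gcg (-0.18 ± 0.22), did not pass, with differences between -2.12 and 0.77.

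Goblet cell genes had 0 rises and 9 falls among 16, 56.2% against 14.3% of all genes, with a median of -2.82. That median was -0.90 with P21 and P23 alone and -4.48 with P34 and P36 alone. The main gut mucin Muc2 had 8.13, 9.38, 3.53 and 3.92 in adenoma and 12.00 and 11.57 in co-culture, and fell by 5.54 ± 1.30 (limma, adjusted p = 0.00592). The granule lectin Zg16 had 7.63, 8.30, 2.17 and 2.07 in adenoma and 11.02 and 10.97 in co-culture. Both genes lay between the co-cultures and the dim level in P21 and P23, and were low in P34 and P36. The goblet factor Spdef fell by less, 6.40, 6.08, 5.92 and 6.71 in adenoma against 7.81 and 7.24 in co-culture. The other 7 members did not pass, with differences between -3.97 and 0.27. Without P28 2 of the 16 fell, without P30 4, and with only the compared groups fitted 4.

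Paneth cell genes had 1 rise (8.33%) and 8 falls (66.7%) among 12, against 19.0% and 14.3% of all genes. Their median was -3.46, with -1.95 for P21 and P23 alone and -4.34 for P34 and P36 alone. The antimicrobial ribonuclease Ang4 had 5.02, 6.42, 2.58 and 2.39 in adenoma and 10.61 and 10.66 in co-culture, and the defensin Defa22 8.87, 9.44, 3.09 and 2.58 in adenoma and 11.93 and 11.25 in co-culture. Defensin genes are near copies of each other, and their probe sets may share signal. Lysozyme (Lyz1) did not pass, with 11.75, 12.20, 3.20 and 2.72 in adenoma and 11.47 and 11.50 in co-culture (adjusted p = 0.218). P21 and P23 were above both co-cultures in Lyz1 and in the matrilysin Mmp7 (10.35, 10.63, 3.26 and 3.03 in adenoma, 7.75 and 7.71 in co-culture), and P34 and P36 were far below them. The hyaluronan-binding protease Habp2 rose, with 9.36, 9.51, 8.49 and 9.22 in adenoma and 5.74 and 5.99 in co-culture. Without P28 3 of the 12 fell, without P30 4, and with only the compared groups fitted 4. Tuft cell genes had 1 rise (7.69%) and 4 falls (30.8%) among 13, with small differences. The regulator Rgs13 fell by 1.34 ± 0.18, the taste G protein Gnat3 fell by 0.93 ± 0.24, and the actin-binding Avil rose by 1.49 ± 0.25. Without P28 2 tuft genes fell, without P23 7.

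Stem cell genes of the crypt mostly rose, with 12 rises and 1 fall among 18 and a median of 1.52, and 9 rises and 0 falls without P28. With all samples 66.7% of these genes rose and 5.56% fell, against 19.0% and 14.3% of all genes. Ascl2, the transcription factor of crypt stem cells, had 8.65, 8.45, 8.26 and 8.52 in adenoma and 4.07 and 3.59 in co-culture. It rose by 4.64 ± 0.29 (limma, adjusted p = 3.72e-07). It varied little among adenomas. Axin2, a feedback inhibitor and standard readout of Wnt signalling, had 10.06, 9.84, 8.06 and 7.55 in adenoma and 5.06 and 4.42 in co-culture, and rose by 4.14 ± 0.58 (adjusted p = 2.02e-04). The ubiquitin ligases that clear Wnt receptors rose too, Rnf43 by 2.55 ± 0.36 and Znrf3 by 1.89 ± 0.22. The receptor Tnfrsf19 rose by 3.03 ± 0.50, the chloride cotransporter Slc12a2 by 1.60 ± 0.25 and the ErbB inhibitor Lrig1 by 1.44 ± 0.26. Axin2, Rnf43 and Tnfrsf19 were higher in P21 and P23 than in P34 and P36.

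The best-known marker of these cells gave an unclear size. Lgr5, the receptor for R-spondins, had 5.09, 4.99, 4.48 and 4.48 in adenoma and 3.81 and 4.24 in co-culture, and rose by 0.74 ± 0.25 (adjusted p = 0.0374). This call was lost in 11 of 20 alternatives, among them without either co-culture, and its adjusted p reached 0.301. Another probe set of Lgr5, fainter as a mean over all 14 samples, averaged 6.40 in adenoma and 2.71 in co-culture, a difference of 3.69. In adenoma it was brighter than the one given, which averaged 4.76. The mean of the probe sets differed by 2.22, so the array does not give 1 size for this gene. Axin2 also had another probe set, which differed by 2.15. Olfm4, a secreted protein of crypt base cells, fell, with 6.66, 7.16, 2.85 and 2.84 in adenoma and 8.00 and 7.64 in co-culture (adjusted p = 0.0473). The call was lost in 9 of 20 alternatives, and the difference ran between -0.91 with P21 and P23 alone and -4.97 with P34 and P36 alone. P34 and P36 were close to the dim level, and P21 and P23 lay between them and the co-cultures. Smoc2 (7.04, 6.75, 4.15 and 4.70 in adenoma, 5.71 and 5.85 in co-culture), a matricellular protein of stem cells, was above the co-cultures in P21 and P23 and below them in P34 and P36, and did not pass. The 5 members that did not pass differed by -0.79 to 0.35.

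The wider list of the Wnt pathway and its targets had 11 rises and 2 falls among 33, with a median of 0.30, and 8 rises and a median of 0.18 without P28. The shares with all samples were 33.3% higher and 6.06% lower, against 19.0% and 14.3% of all genes. The crypt factor Sox9 had 11.07, 11.02, 10.33 and 10.48 in adenoma and 7.76 and 7.39 in co-culture. It rose by 3.15 ± 0.28 (limma, adjusted p = 6.41e-06). The hyaluronan receptor Cd44 had 10.76, 10.69, 9.73 and 9.60 in adenoma and 8.23 and 8.01 in co-culture, and rose by 2.07 ± 0.33. Cyclin D1 (Ccnd1) had 11.11, 11.27, 11.18 and 10.96 in adenoma, 9.32 and 9.92 in co-culture and a mean of 6.35 in monoculture, and rose over co-culture by 1.51 ± 0.27 (adjusted p = 0.001). The beta-catenin partner Bcl9l rose by 0.97 ± 0.15. The Wnt inhibitor Apcdd1 fell by 1.49 ± 0.27 and the ephrin Efnb1, a ligand of Ephb receptors, fell by 1.36 ± 0.33. The other 20 members did not pass, with differences between -0.45 and 1.32. With P34 and P36 alone 9 of the 33 rose and 5 fell.

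**Figure D3:**
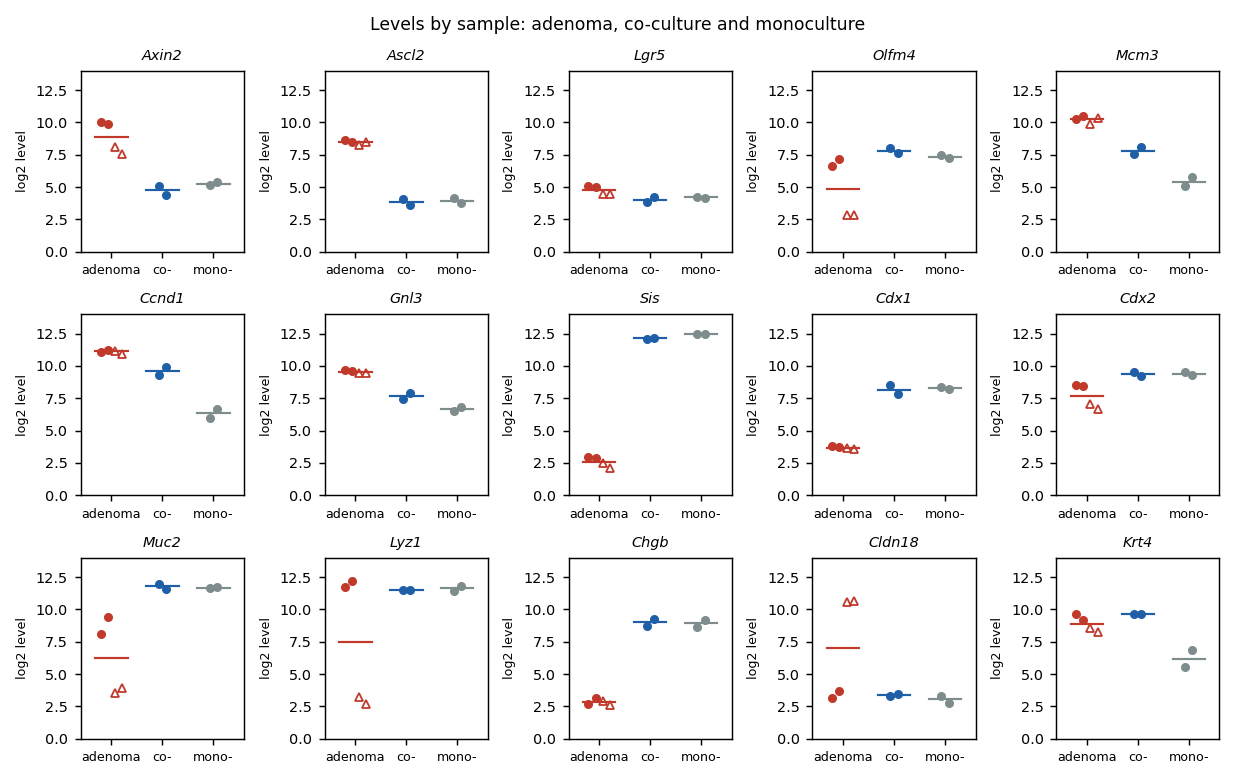
Levels (vertical axis, log2) of 15 genes in adenoma (red; dots P21 and P23, open triangles P34 and P36), co-culture (blue) and monoculture (grey), 1 point per animal with a line at each group's mean. Axin2 and Ascl2 are high in adenoma alone, Ccnd1 and Mcm3 step up in co-culture and again in adenoma, and Muc2, Lyz1, Olfm4 and Cldn18 split the adenomas.

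Other signalling lists moved in single members. BMP and TGF-beta genes had 6 rises and 2 falls among 27, near the background for rises, and 3 rises without P28 or without P30. The receptor Tgfbr2 rose by 1.47 ± 0.18, the ligand Tgfb3 by 3.90 ± 0.88, and the inhibitors of differentiation Id1, Id2 and Id3, which are BMP targets, by 1.33, 1.38 and 0.99. Their relative Id4 fell by 2.65 ± 0.58, as did the TGF-beta-induced matrix protein Tgfbi, with 3.95, 4.26, 3.19 and 2.70 in adenoma and 8.09 and 7.13 in co-culture. The other 19 members did not pass, with differences between -1.07 and 0.88. Notch genes had 4 rises and 1 fall among 17, which is 23.5% higher and 5.88% lower, against 19.0% and 14.3% of all genes. The receptors Notch1 and Notch2 rose by 1.39 ± 0.25 and 1.39 ± 0.28, the ligand Jag2 by 1.52 ± 0.26 and the glycosyltransferase Lfng by 1.85 ± 0.37. The ligand Dll1, made by secretory precursors, fell by 2.21 ± 0.43, and the Notch target Hes1 did not pass (0.42 ± 0.79).

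EGF family ligands and feedback genes had 5 rises and 2 falls among 22, near the background of 19.0% for rises and below that of 14.3% for falls, and 3 rises without P28. The feedback genes Spry2, Etv5 and Phlda1 rose by 0.93, 1.24 and 1.00. Another probe set of Etv5 differed by -0.17, and the mean of its probe sets, 0.53, did not pass (adjusted p = 0.104). The receptor Erbb3 fell by 1.02 ± 0.22. The ligand Hbegf (0.21 ± 0.52) did not pass, nor did the other members, which gave 15 in all with differences between -1.34 and 1.49. Of 17 immediate early genes Jun rose by 1.26 ± 0.22 and Fos, its partner in AP-1, fell by 1.50 ± 0.27, with 6.27, 6.58, 7.17 and 5.97 in adenoma and 8.23 and 7.76 in co-culture. Ier3 rose and Jund fell, and the other 13 did not pass. The share called was 11.8% each way, against 19.0% of all genes higher and 14.3% lower. The Jund call was lost in 8 of 20 alternatives and the Ier3 call in 3.

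Genes of DNA replication rose almost without exception: 26 of 27 rose (96.3%, against 19.0% of all genes) and 0 fell, with a median of 2.01. Ribonucleotide reductase (Rrm1), which makes deoxynucleotides, had 10.55, 10.67, 10.58 and 10.69 in adenoma and 8.16 and 8.62 in co-culture, and rose by 2.23 ± 0.16 (limma, adjusted p = 1.07e-06). The flap nuclease Fen1 had 7.28, 7.56, 7.71 and 7.48 in adenoma and 5.84 and 5.59 in co-culture, and the polymerase subunit Pola1 7.33, 7.30, 6.99 and 7.31 in adenoma and 4.29 and 4.59 in co-culture. These genes varied little among adenomas. The clamp loader subunit Rfc3 rose by 1.76 ± 0.21, the histone chaperone Chaf1b by 2.38 ± 0.29 and the origin-binding Orc1 by 1.61 ± 0.20. The sliding clamp Pcna, at 10.79, 10.71, 10.64 and 10.66 in adenoma and 10.49 and 10.32 in co-culture, was the member that did not pass (adjusted p = 0.349). The 6 subunits of the replicative helicase, Mcm2 to Mcm7, all rose, by 1.84 to 2.46, and were named after their values were seen.

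The start regions of Mcm3 and Mcm6 are printed because many genes of this list carry letters of the E2F site. Both lie on the minus strand of chromosome 1 in GRCm38.p6, at chr1:20820263-20820562 and chr1:128359656-128359955, and capitals mark TTTGGCGC, TTTCCCGC, TTTCGCGC or TTTGCCGC on either strand. The first capital block of Mcm6 holds overlapping matches, 1 on each strand.
Mcm3: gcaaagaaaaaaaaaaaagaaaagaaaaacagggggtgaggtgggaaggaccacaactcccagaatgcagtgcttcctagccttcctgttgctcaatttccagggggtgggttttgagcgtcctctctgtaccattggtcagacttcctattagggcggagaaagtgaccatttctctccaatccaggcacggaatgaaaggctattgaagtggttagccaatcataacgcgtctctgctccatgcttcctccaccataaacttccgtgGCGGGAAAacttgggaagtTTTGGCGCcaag
Mcm6: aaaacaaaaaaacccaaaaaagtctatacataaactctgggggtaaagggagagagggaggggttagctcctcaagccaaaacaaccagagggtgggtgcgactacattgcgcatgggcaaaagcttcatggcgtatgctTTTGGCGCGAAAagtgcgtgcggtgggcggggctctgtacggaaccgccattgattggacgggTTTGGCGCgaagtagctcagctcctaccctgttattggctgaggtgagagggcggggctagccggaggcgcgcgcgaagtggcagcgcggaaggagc
Of 23 replication genes with a sequence, 12 held such a match (52.2%), against 2.60% of 27025 genes. In mitosis genes it was 1 of 21 (4.76%), in ribosome biogenesis genes 3 of 16 (18.8%) and in brush border genes 0 of 18. Mcm3 itself had 10.28, 10.49, 9.84 and 10.31 in adenoma and 7.53 and 8.11 in co-culture, and Mcm6 9.80, 9.96, 9.77 and 9.79 in adenoma and 7.74 and 8.24 in co-culture.

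Mitosis and spindle genes rose in 21 of 25 cases (84.0%, against 19.0% of all genes) and fell in 0, with a median of 1.97. The spindle checkpoint kinase Ttk had 8.83, 8.64, 8.62 and 8.65 in adenoma and 5.70 and 6.29 in co-culture, and cyclin A2 (Ccna2) 10.48, 10.56, 10.59 and 10.74 in adenoma and 8.60 and 9.08 in co-culture. Topoisomerase Top2a rose by 2.60 ± 0.55, the checkpoint protein Mad2l1 by 2.04 ± 0.44, and the spindle motors and organisers Kif11 and Tpx2 by 2.24 ± 0.53 and 1.97 ± 0.47. The 25 members had positive differences, and the count of calls moved with the samples included. It was 11 with P21 and P23 alone, 11 with P34 and P36 alone, 10 with each adenoma pair averaged to 1 sample, and 24 without animals P28 and Pl_III. Without P28 4 members rose and without P30 9, with medians of 1.87 and 2.12. Cdc20, the activator of the anaphase complex (1.02 ± 0.63), Kif23 (1.06 ± 0.49), Ccnb2 (1.49 ± 0.64) and Ube2c (1.21 ± 0.50) did not pass.

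Regulators of the G1 phase had 14 rises and 2 falls among 21, with a median of 1.15, and 10 rises and 1 fall without P28. With all samples 66.7% rose and 9.52% fell, against 19.0% and 14.3% of all genes. The kinase Cdk4, the partner of D cyclins, had 10.78, 10.88, 10.77 and 10.36 in adenoma and 8.79 and 9.20 in co-culture. It rose by 1.70 ± 0.17 (limma, adjusted p = 1.28e-05). Cyclin E1 (Ccne1) rose by 1.93 ± 0.24, the S-phase factor E2f1 by 1.51 ± 0.22, the kinase Cdk2 by 1.49 ± 0.22 and Ccnd2 by 1.01 ± 0.14. The tumour suppressor Rb1, which holds E2F factors in check, fell, with 8.35, 8.28, 8.29 and 8.50 in adenoma and 9.87 and 9.86 in co-culture. E2f2 fell as well (-1.42 ± 0.33). The kinase inhibitors Cdkn2a and Cdkn2c rose, by 1.71 ± 0.46 and 2.16 ± 0.49. The kinase inhibitor Cdkn1a had 11.27, 11.13, 11.04 and 10.83 in adenoma and 11.44 and 11.27 in co-culture and did not pass. Targets of p53 had 8 rises (53.3%) and 2 falls (13.3%) among 15, against 19.0% and 14.3% of all genes. The nuclease Aen rose by 1.55 ± 0.14, Zmat3 by 1.30 ± 0.14, Ccng1 by 1.26 ± 0.16 and the receptor Eda2r by 2.67 ± 0.42. Sesn1 fell by 2.06 ± 0.17 and the death receptor Fas fell by 0.94 ± 0.27. The death genes Bbc3 (0.42 ± 0.21) and Pmaip1 (0.27 ± 0.79) did not pass, nor did Cdkn1a (-0.29), which is also a p53 target on this list.

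Ribosome biogenesis genes rose in 18 of 19 cases (94.7%, against 19.0% of all genes) and fell in 0, with a median of 1.39. The nucleolar GTPase Gnl3 had 9.65, 9.59, 9.43 and 9.48 in adenoma and 7.40 and 7.92 in co-culture, and the processing factor Utp20 8.96, 9.04, 8.55 and 8.51 in adenoma and 6.84 and 6.96 in co-culture. Both varied little among adenomas. Wdr12 rose by 1.55 ± 0.13, Mybbp1a by 1.62 ± 0.16, Nip7 by 1.13 ± 0.12 and nucleolin (Ncl) by 1.19 ± 0.13. The member that did not pass differed by -0.13.

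**Figure D4:**
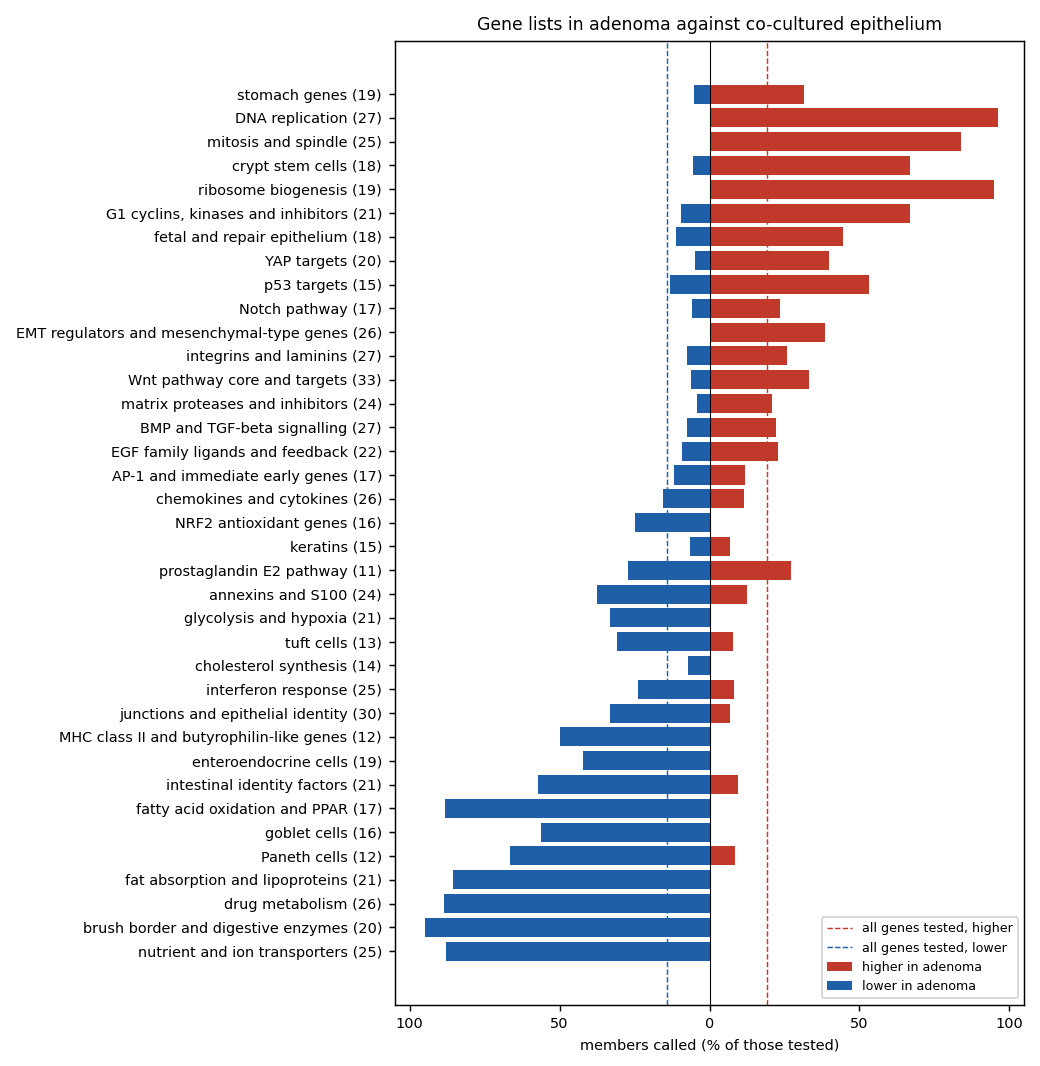
Share of the tested members of each gene list (number in brackets) that was called, in percent, with lower calls to the left in blue and higher calls to the right in red, ordered by median difference. Dashed lines mark the shares over all 18095 genes, 14.3% lower and 19.0% higher.

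Among genes linked to YAP and to repair, some stood near the co-culture level in adenoma and others were higher still. YAP targets had 8 rises and 1 fall among 20, with a median of 0.66, and 6 rises and 0 falls without P28. The shares with all samples were 40.0% higher and 5.0% lower, against 19.0% and 14.3% of all genes. The phosphatase Ptpn14 had 9.17, 9.14, 9.03 and 8.82 in adenoma, 6.04 and 6.64 in co-culture and a mean of 4.12 in monoculture. It rose over co-culture by 2.70 ± 0.18 (limma, adjusted p = 6.83e-07). The matricellular proteins Ccn1 and Ccn2 rose by 2.46 ± 0.31 and 2.93 ± 0.37, and the YAP partner Tead1 by 0.63 ± 0.12. Another probe set of Ccn2 differed by 0.14, and the mean of its probe sets by 1.53. Amotl1, which holds YAP in the cytoplasm, fell by 0.75 ± 0.25, a call lost in 7 of 20 alternatives. The clotting receptor F3 had 8.69, 9.21, 9.88 and 8.78 in adenoma, 9.09 and 8.54 in co-culture and a mean of 6.92 in monoculture, and did not pass. The 11 members that did not pass differed by -0.44 to 1.52.

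Fetal and repair genes had 8 rises and 2 falls among 18, with a median of 0.90, with 4 rises and 1 fall without P28, and 6 rises and 5 falls with P21 and P23 alone. With all samples 44.4% rose and 11.1% fell, against 19.0% and 14.3% of all genes. Annexin A1 (Anxa1) had 11.65, 11.61, 11.92 and 11.63 in adenoma, 10.83 and 10.53 in co-culture and a mean of 8.71 in monoculture. Clusterin (Clu), a marker of revival stem cells, had 11.49, 11.50, 11.72 and 11.61 in adenoma, 10.25 and 10.65 in co-culture and 9.01 in monoculture. The alarmin Il33 had 8.63, 8.51, 8.13 and 7.63 in adenoma, 6.87 and 7.10 in co-culture and 4.74 in monoculture. These 3 rose over co-culture, by 1.03 ± 0.14, 1.13 ± 0.28 and 1.24 ± 0.30. The interleukin antagonist Il1rn fell by 1.63 ± 0.29 and the annexin Anxa8 fell by 1.02 ± 0.30. The surface antigen Psca had 9.94, 9.66, 12.07 and 12.08 in adenoma, 11.60 and 11.70 in co-culture and 8.60 in monoculture. It did not pass (difference -0.71, 95% interval -2.05 to 0.62), which does not show equal levels.

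Keratins had 1 rise and 1 fall among 15, 6.67% each way against 19.0% of all genes higher and 14.3% lower. Krt20, a keratin of mature villus cells, had 6.51, 7.30, 8.52 and 7.99 in adenoma and 12.56 and 12.28 in co-culture, and fell by 4.84 ± 0.55 (adjusted p = 4.38e-05). Krt36, which rose by 0.76 ± 0.25, was faint in all samples, and its call was lost in 10 of 19 alternatives. Krt4, a keratin of layered epithelia, had 9.68, 9.16, 8.53 and 8.23 in adenoma, 9.65 and 9.68 in co-culture and a mean of 6.20 in monoculture, with a difference of -0.77 (95% interval -1.62 to 0.09). Krt80 had 8.26, 8.50, 8.50 and 8.81 in adenoma, 7.63 and 7.89 in co-culture and 4.60 in monoculture, with a difference of 0.75 (95% interval 0.16 to 1.35). Krt7 differed by -0.12 (95% interval -0.78 to 0.53). None of these 3 passed, and the intervals leave room for changes in either direction for Krt4 and Krt7 and for a rise of Krt80.

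Junction and epithelial identity genes had 2 rises and 10 falls among 30, with a median of -0.63, and 1 rise and 6 falls without P30. The shares with all samples were 6.67% higher and 33.3% lower, against 19.0% and 14.3% of all genes. The adhesion molecule Epcam had 10.80, 10.85, 9.98 and 9.78 in adenoma and 11.19 and 11.01 in co-culture. It did not pass (-0.75 ± 0.37, limma, adjusted p = 0.146). E-cadherin (Cdh1) differed by 0.10 ± 0.33 and did not pass either. Claudin 15 (Cldn15), a pore-forming claudin, fell, with 7.72, 7.21, 3.78 and 4.05 in adenoma and 10.67 and 10.73 in co-culture, and the connexin Gjb1 fell by 2.24 ± 0.25. The epithelial factor Ovol1 fell by 1.72 ± 0.14, whereas Grhl2, another such factor, rose by 0.90 ± 0.21. The mean level of the 30 genes was between 8.51 and 9.0 in adenoma, 9.42 and 9.33 in co-culture, and 4.22 in fibroblast monoculture.

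Of 26 regulators of epithelial-mesenchymal transition and genes of mesenchymal type, 10 rose (38.5%) and 0 fell, against 19.0% and 14.3% of all genes. Their median was 0.39, or 0.63 without P28. The genes that rose were Msn, Myof and Fn1, given above, and genes of matrix and membrane. The metalloprotease inhibitor Timp2 had 9.97, 10.14, 10.34 and 10.23 in adenoma, 6.38 and 6.57 in co-culture and a mean of 4.98 in monoculture, the caveolin Cav2 9.13, 9.24, 9.57 and 9.42 in adenoma and 5.95 and 5.75 in co-culture, and thrombospondin (Thbs1) 11.48, 11.79, 10.72 and 9.70 in adenoma and 6.71 and 7.37 in co-culture. Every adenoma was above every co-culture in these. None of the transcription factors of the transition on the list passed. Among them Snai1 had 2.97, 3.15, 3.23 and 3.12 in adenoma and 2.68 and 3.09 in co-culture, and Zeb1 2.78, 2.81, 2.98 and 3.39 in adenoma and 2.87 and 2.39 in co-culture. Vimentin (Vim), the filament of mesenchymal cells, had 5.08, 4.72, 4.98 and 4.69 in adenoma and 5.11 and 4.69 in co-culture, a difference of -0.03 ± 0.17.

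Basement membrane genes had 7 rises and 2 falls among 27 integrins, laminins and their partners, which is 25.9% higher and 7.41% lower against 19.0% and 14.3% of all genes, and 4 falls with a filter at the 50th percentile or 5 after cyclic loess. The linker nidogen 1 (Nid1) had 3.31, 3.91, 3.76 and 4.20 in adenoma, 9.07 and 8.26 in co-culture and a mean of 5.29 in monoculture, and fell by 4.87 ± 0.27 (limma, adjusted p = 1.17e-07). All adenomas were below the monocultures as well, and the gene was at 12.06 in fibroblast monoculture. The laminin chain Lama5 had 9.04, 8.68, 9.18 and 8.47 in adenoma and 6.13 and 6.92 in co-culture, and rose by 2.32 ± 0.29. Collagen XVIII (Col18a1) rose by 2.35 ± 0.31, perlecan (Hspg2) by 1.57 ± 0.21 and the integrin Itgb6 by 1.56 ± 0.23, while Itgb5 fell by 1.84 ± 0.30. The other 18 members did not pass, with differences between -0.67 and 0.90. Of 24 matrix proteases and inhibitors 5 rose (20.8%) and 1 fell (4.17%), against 19.0% and 14.3% of all genes. With P34 and P36 alone 7 rose and 3 fell. Urokinase (Plau) rose by 2.20 ± 0.33 and the other plasminogen activator, Plat, fell by 1.10 ± 0.22. The other 18 members did not pass, with differences between -2.86 and 1.48. Annexins and S100 proteins had 3 rises and 9 falls among 24, and 4 falls without P28 and 1 without P30. With all samples 12.5% of this list rose and 37.5% fell, against 19.0% and 14.3% of all genes. The annexin Anxa6 rose by 3.06 ± 0.42. The villus annexin Anxa13 fell, with 8.78, 8.96, 3.49 and 3.52 in adenoma and 11.45 and 11.40 in co-culture.

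Prostaglandin E2 genes had 3 rises and 3 falls among 11, 27.3% each way against 19.0% of all genes higher and 14.3% lower. The phospholipase Pla2g4a, which frees arachidonic acid, had 8.52, 8.70, 9.69 and 9.81 in adenoma and 5.26 and 5.83 in co-culture, and the synthase Ptgs2 6.17, 6.69, 9.64 and 8.43 in adenoma and 3.13 and 2.86 in co-culture. Both were higher in every adenoma, and highest in P34 and P36. The exporter Abcc4 rose by 1.17 ± 0.27. The importer Slco2a1, which clears prostaglandins from outside the cell, had 4.59, 4.02, 4.67 and 4.94 in adenoma and 8.09 and 8.10 in co-culture, and fell by 3.54 ± 0.22 (limma, adjusted p = 3.72e-07). The receptor Ptger4 fell by 1.16 ± 0.33. The degrading enzyme Hpgd had 7.31, 7.39, 8.44 and 8.55 in adenoma and 9.0 and 9.21 in co-culture and did not pass (adjusted p = 0.0689). Without P28 or without P30 3 members rose and 1 fell.

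Of 12 MHC class II and butyrophilin-like genes 6 fell and 0 rose. Btnl1 had 2.21, 2.01, 2.12 and 2.07 in adenoma and 9.44 and 9.44 in co-culture, and Btnl2 3.02, 3.58, 3.11 and 2.96 in adenoma and 8.40 and 8.59 in co-culture. Butyrophilin-like proteins shape the T cells of the gut lining, and both genes were low in all adenomas. The 6 members that did not pass differed by -0.35 to 0.22. Of 25 interferon genes 2 rose and 6 fell, with a median of -0.58, and 3 fell without P28 or without P30, while 12 fell with only the compared groups fitted. The shares with all samples and groups were 8.0% higher and 24.0% lower, against 19.0% and 14.3% of all genes. The factor Irf7 fell by 2.71 ± 0.54, Oasl1 fell by 2.39 ± 0.49, and the antiviral membrane protein Bst2 rose by 2.89 ± 0.37. Among 26 chemokines and cytokines 3 rose (11.5%) and 4 fell (15.4%), against 19.0% and 14.3% of all genes. The monocyte attractant Ccl2 had 6.54, 7.01, 6.28 and 4.79 in adenoma and 2.91 and 1.88 in co-culture. The growth factor Csf1 rose by 1.97 ± 0.29, the gut chemokine Ccl25 fell by 2.15 ± 0.33 and the mucosal chemokine Ccl28 fell by 2.26 ± 0.28. The other 19 did not pass, with differences between -0.58 and 1.44.

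Metabolic and stress lists had few rises. Glycolysis and hypoxia genes had 0 rises and 7 falls (33.3%) among 21, against 19.0% and 14.3% of all genes. Their median was -0.45, or -0.29 without P28. The hypoxia-induced Ndrg1 had 8.09, 8.22, 8.35 and 7.93 in adenoma and 11.60 and 11.31 in co-culture, the lactate exporter Slc16a3 fell by 3.21 ± 0.54, and the factor Hif1a fell by 1.28 ± 0.30. The glycolytic enzyme Pgk1 (-0.12 ± 0.21) did not pass. Of 14 cholesterol synthesis genes only Mvk fell, by 1.05 ± 0.37, a share of 7.14% against 14.3% of all genes. The count of falls was 10 with only the compared groups fitted and 5 without animals P28 and Pl_III, and 0 with no filter, without any 1 of the 6 samples, with either adenoma pair alone and with the pairs averaged. All 14 differences were negative, with a median of -0.57. Of 16 NRF2 antioxidant genes 0 rose and 4 fell (25.0%), against 19.0% and 14.3% of all genes. Their median was -0.02, with 8 differences positive and 8 negative, and with P34 and P36 alone 2 rose and 4 fell. Among the 4 that fell were Osgin1 (-1.87 ± 0.29), Srxn1 (-1.25 ± 0.26) and Gclc (-0.71 ± 0.18). The other 12 did not pass, with differences between -0.66 and 1.12.

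Markers of other cell types were low in both groups. The 20 fibroblast and myofibroblast markers had mean levels of 3.32, 3.37, 3.56 and 3.39 in adenoma and 3.49 and 3.50 in co-culture, against 10.3 in fibroblast monoculture. Of these markers 1 rose and 1 fell, 5.0% each way against 19.0% of all genes higher and 14.3% lower. Smooth muscle actin (Acta2) rose, with 5.57, 6.13, 7.04 and 6.65 in adenoma and 4.54 and 5.50 in co-culture (1.33 ± 0.35, limma, adjusted p = 0.0113), and the receptor Pdgfrb fell by 1.41 ± 0.24. Collagen I (Col1a1) had 3.80, 4.05, 4.35 and 3.97 in adenoma and 4.19 and 3.80 in co-culture, and Pdgfra 2.66, 2.21, 2.71 and 2.07 in adenoma and 3.24 and 3.28 in co-culture, and neither passed. Col1a1 and Pdgfra were low in every sample of both groups, and Acta2 was higher in every adenoma than in both co-cultures. The 16 myeloid markers had means of 3.77, 3.71, 3.69 and 3.62 in adenoma and 3.99 and 3.88 in co-culture, against 8.56 in fibroblast monoculture. They had 2 rises (Cd14 and Cd68, 12.5%) and 3 falls (Mrc1, Laptm5 and Itgam, 18.8%). The common leukocyte antigen Ptprc had 3.06, 3.25, 3.16 and 3.40 in adenoma and 2.90 and 3.04 in co-culture. The 13 markers of T, NK and B cells averaged 2.60 to 2.70 in adenoma and 2.68 and 2.77 in co-culture. Of the 8 bright enough to be tested 1 fell (12.5%). The T cell gene Cd3e was not among those tested, being dim in all 5 groups. The 12 endothelial markers averaged 3.08 to 3.30 in adenoma and 3.30 and 3.39 in co-culture. Among 11 tested 1 rose (Esam, 9.09%) and 4 fell (36.4%), of which Lyve1 and Prox1 had the largest falls, -1.76 ± 0.28 and -1.46 ± 0.22. The 7 nerve and glia markers averaged 3.11 to 3.30 in adenoma and 3.16 and 3.27 in co-culture, with 0 calls among 6 tested, and the single red blood cell marker tested did not pass. The part of such cells in the differences above was not tested.

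**Figure D5:**
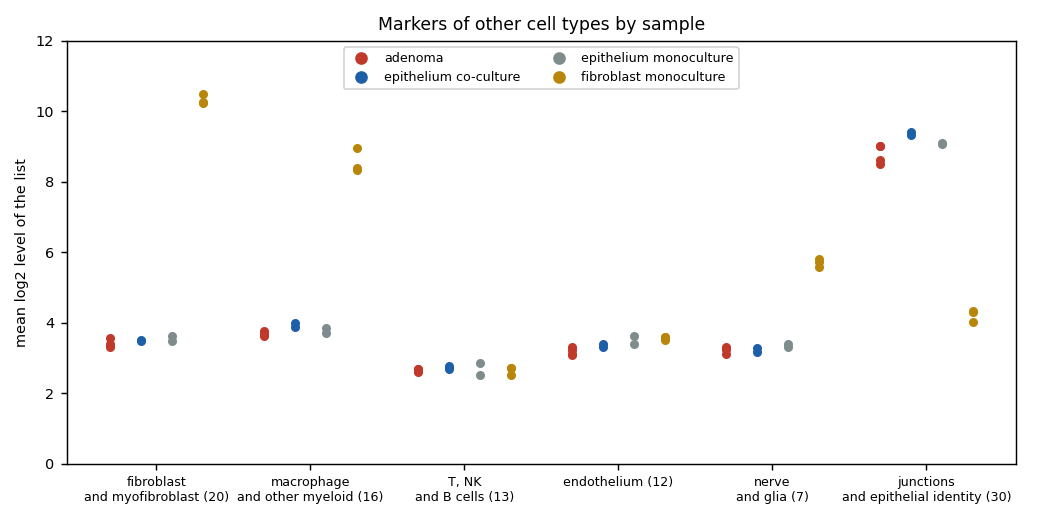
Mean level (vertical axis, log2) of marker lists of other cell types and of epithelial junction genes, 1 point per sample, for adenoma, co-culture, epithelial monoculture and fibroblast monoculture. Adenoma and co-culture lie between 2.60 and 3.99 in the 5 lists of other cell types, far below fibroblast monoculture for fibroblast and myeloid markers.

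The adenomas fell into pairs that differed from each other. In 444 of the 6022 called genes (7.37%) P21 and P23 lay at least 2-fold apart from P34 and P36, 181 of those that rose and 263 of those that fell, and over all 18095 genes it was 1090 (6.02%). P21 and P23 carry T2 in their titles, a tag that no label explains, so the difference between the pairs cannot be told apart from what it records. The genes with the widest spread among those called lower were the guanylin receptor Gucy2c, with 9.63, 9.44, 2.60 and 3.13 in adenoma and 11.23 and 11.19 in co-culture, Defa22, Zg16, Clca3b, Mgam and Far2, a fatty acyl reductase. In all 6 the pair P34 and P36 was the lower one. Far2 had 8.33, 8.31, 2.90 and 2.55 in adenoma and 9.62 and 9.50 in co-culture, and Clca3b 10.47, 10.36, 4.93 and 4.38 in adenoma and 11.92 and 11.51 in co-culture. Among genes called higher the widest spreads were those of Pgc, the caveolar protein Cavin2 (4.15, 3.93, 8.16 and 8.21 in adenoma, 2.53 and 2.63 in co-culture), the aldehyde dehydrogenase Aldh3a1 (6.63, 7.03, 9.95 and 10.37 in adenoma, 3.88 and 4.68 in co-culture), the metalloprotease inhibitor Timp3, Cmtm8 and Wfdc18. Timp3 and Wfdc18 were higher in P21 and P23, and the other 4 in P34 and P36. Cmtm8 had 4.61, 4.72, 7.69 and 8.05 in adenoma and 3.26 and 3.51 in co-culture, and Wfdc18 7.89, 7.33, 4.59 and 4.36 in adenoma and 2.80 and 2.87 in co-culture. Over 20 alternatives the calls of these widely spread genes were lost in 3 (Mgam) to 8 (Clca3b) among the lower ones. Among the higher ones they were lost in 1 (Aldh3a1) to 8 (Timp3). With P21 and P23 alone against the co-cultures 3268 genes rose and 2411 fell, and with P34 and P36 alone 3189 and 2347.

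The genes just inside the threshold of the test were Map4k4 (0.43 ± 0.16) and Dbt (0.41 ± 0.15), and those just outside were Ccdc167 (0.59 ± 0.21) and Pex14 (-0.68 ± 0.24). At an adjusted p under 0.01 2419 genes rose and 1752 fell, and 41.0% of all genes had an unadjusted p under 0.05. P-values here set a difference against a within-group spread shared over all 14 samples, fibroblast cultures included. With 2 co-cultures they rest on the assumption that all groups vary alike. The mean levels of the mitosis genes went against it. They were 8.36, 7.74 and 6.06 in the fibroblast monocultures and had an SD of 0.04 over the adenomas.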

How the data were processed

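RNA from epithelium, adenoma cells and fibroblasts was hybridised to 16 one-colour whole-transcript arrays, 150 ng per sample. The submitters' processing notes name RMA as the step by which the authors turned array intensities into the deposited log2 probe set levels, without a version. These levels were used without further normalization. Of 41345 probe sets, 23521 carried 1 gene symbol, 1814 several and 16010 none here. Each of 22180 genes was represented by its brightest probe set. A gene entered the test if at least 1 of the 5 group means exceeded the 30th percentile (2.67), which left out 4085.

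Repeat arrays of an animal were averaged, and the 14 samples were fitted with limma 3.58.1 in R 4.3.3 (lmFit and eBayes, 5 group means, 2-sided, 11.7 degrees of freedom after moderation), with Benjamini-Hochberg adjustment over 18095 genes. The fit was tested on simulated data. Replicates were counted by the animal names in the labels. The labels do not tie adenoma and co-culture animals to each other. Alternatives changed the filter, the normalization (cyclic loess), the variance prior, the probe set rule, the repeats, the replicate block and the samples included.

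The comparison, the gene lists and the samples left out were chosen with earlier results of these data known. Named genes were the 15 largest differences each way among called genes without overlap, up to 6 called members each way and up to 4 uncalled members per list by p, the 6 called genes each way that varied most among adenomas, the 2 genes on each side of the threshold, and Apc, Lgr5, Epcam, Vim, Col1a1, Acta2, Cdx2, Vil1, Ccnd1, Krt4, Krt80 and Cyp1a1. Other genes, and the probe sets compared beside them, were chosen after their values were seen. Of the uncalled members some are given only as a range. Promoter sequences are from RefSeq.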

Additional observations from a re-analysis of the deposited data

Results flagged for a closer look

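In 8 of the genes named, 1 adenoma lay apart from the other 3, with a gap to the nearest of them above Dixon's 95% critical value for 4 samples. Chance flags about 1 in 20 groups, and 275 genes were looked at. Adenoma P36 stood apart in alkaline phosphatase Alpi, at 5.72 against 5.98 to 6.03 in the other adenomas, in the glutathione transferase Gstm3, at 8.16 against 7.67 to 7.72, and in the serotonin enzyme Tph1, at 2.35 against 2.61 to 2.65. Adenoma P34 stood apart in annexin Anxa1, at 11.92 against 11.61 to 11.65, and in the polymerase subunit Pola1, at 6.99 against 7.30 to 7.33. Adenoma P21 stood apart in annexin Anxa8, at 8.58 against 9.16 to 9.27, in cyclin Ccne1, at 7.48 against 7.68 to 7.70, and in the checkpoint kinase Ttk, at 8.83 against 8.62 to 8.65. All of these adenoma values stayed on the same side of both co-cultures.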

How the results depend on the processing

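No called gene named in the text changed sign under any of the 20 alternatives, and 171 of 226 stayed called in all of them. Leaving out co-culture P28, which leaves 1 co-culture assumed to vary like the other groups, gave 2222 rises and 1642 falls, and leaving out P28 with fibroblast animal Pl_III 2308 and 1676 (doubtful labels). With each adenoma pair averaged to 1 sample 2844 genes rose and 2076 fell. The setting without P28 and Pl_III, cyclic loess over the 8 compared arrays and the averaged adenoma pairs were chosen after seeing the data. Over all samples left out in turn, rises ran between 2222 and 3332 and falls between 1642 and 2482. With a replicate block, the animal as a random block, 3427 genes rose and 2559 fell, at a within-animal correlation of 0.457, and the block ended the call of 1 named gene, Map4k4 (limma, adjusted p = 0.0527), which lay next to the threshold. Fitting only the compared groups gave 3221 rises and 2514 falls. Without P28 and Pl_III falls numbered 6 of 30 junction genes, 2 of 25 interferon genes, 2 of 26 chemokines and 2 of 16 NRF2 genes. Uncalled genes changed sign as follows. With P21 and P23 alone Apc differed by -0.24, Lyz1 by 0.49, Mmp7 by 2.76 (limma, adjusted p = 5.00e-05), Smoc2 by 1.12, Sox2 by -0.0482, Tff1 by -0.92 (limma, adjusted p = 0.0024), Col1a1 by -0.0609 and Vim by 0.0055. With P34 and P36 alone Gata4 differed by 0.0147 and Psca by 0.43. Cyclic loess over all arrays gave -0.0504 for Cdh1 and -0.13 for Col1a1, cyclic loess over the 8 compared arrays -0.0073 for Col1a1, and the mean of all probe sets -0.0207 for Cdh1. Without P28 and Pl_III Vim differed by 0.18, Xist by 0.0203 and Eif2s3y by -0.10. With 1 sample left out in turn, differences ran from -0.0385 to 0.33 for Apc, -0.14 to 0.25 for Col1a1, -2.18 to 0.35 for Mmp7, -0.58 to 0.39 for Smoc2, -0.24 to 0.18 for Vim, -5.25 to 0.0203 for Xist and -0.10 to 5.04 for Eif2s3y, with the sex-linked pair turning only without P28. Of 22 named genes with another probe set, 13 had one that differed by over 1 from the value given or in sign, 5 of these being dim in both groups. The causes of these shifts were not tested.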

Other observations

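Genes were also grouped by the stem of their symbol, for stems with at least 12 tested genes, and the stems named here were chosen after their values were seen. Nuclear pore genes (Nup) had 14 rises and 0 falls among 17, with a median of 1.19, against 19.0% of all genes higher. Nup210 had 7.58, 7.33, 7.36 and 7.72 in adenoma and 5.43 and 5.67 in co-culture, and rose by 1.95 ± 0.18 (limma, adjusted p = 8.13e-06). Centrosomal protein genes (Cep) had 26 rises (68.4%) and 2 falls (5.26%) among 38, against 19.0% and 14.3% of all genes. Their median was 0.95. Host genes of small nucleolar RNAs (Snhg), whose products guide the modification of ribosomal RNA, had 11 rises (73.3%) and 0 falls among 15. Box H/ACA RNAs themselves (Snora) had 20 rises (76.9%) and 0 falls among 26. Box C/D RNAs (Snord) had 11 rises and 0 falls among 47, 23.4% and near the background, with a median of 0.25. Snhg15 had 7.93, 6.98, 7.63 and 7.10 in adenoma and 4.86 and 4.99 in co-culture, above in every adenoma. Snora genes lie in introns of host genes, and their probe sets may share transcripts with them.

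Carboxylesterases (Ces), which split drugs and lipids, had 0 rises and 12 falls (66.7%) among 18, against 19.0% and 14.3% of all genes. Their median was -1.17. Ces2a had 4.66, 5.18, 2.13 and 2.31 in adenoma and 9.65 and 9.90 in co-culture, and fell by 6.20 ± 0.72 (limma, adjusted p = 4.82e-05), further in P34 and P36 than in P21 and P23. Carboxylesterases are close relatives, and their probe sets may share signal. Aldehyde dehydrogenases (Aldh) had 3 rises (14.3%) and 11 falls (52.4%) among 21. Vacuolar sorting genes (Vps), which route proteins to lysosomes, had 1 rise (3.03%) and 14 falls (42.4%) among 33, with a small median of -0.30. Vps18 had 6.45, 6.53, 6.30 and 6.02 in adenoma and 7.39 and 7.17 in co-culture, below in every adenoma.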
